A study of Mus musculus with 16 samples.

Results

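Ide, Kif11, Fgfbp3 and Hhex are 4 genes that lie close together on mouse chromosome 19. They were selected on measured values, because the level of Ide was seen to be higher in Aim2-/- than in WT libraries in both cell states, and the other members were taken as its neighbours. They occupy 7 of the 53090 rows of each deposited table, since Ide, Kif11 and Hhex are listed under 2 identifiers each and Fgfbp3 under 1. The rows of a pair held the same expected count in every library, and they were added together. Because of that selection, the genotype difference of Ide is given as a description with no test. The effect of culture did not enter the choice and was tested. The other members and the neighbours were tested too, but members and lists were chosen with earlier results of these data known. Their genotype tests may therefore not be independent of that choice.

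Libraries came from naive CD4+ T cells (Tn), isolated from spleen as CD44low CD62Lhigh and never cultured, and from such cells kept for 48 h with antibodies to CD3 and CD28, TGF-beta and IL-2 (Treg). Each state was taken from C57BL/6 mice (WT) and from mice without AIM2 on the C57BL/6 background (Aim2-/-), which makes 4 groups of 4 libraries. WT and Aim2-/- animals were bought from one supplier and then bred in one facility, housed together after weaning and matched for sex and age. Ages are not given, nor whether the mice were littermates, nor whether the libraries of a group came from separate animals, so p-values measure the spread between these libraries, which may in part be technical. Differences of the mouse lines other than the Aim2 allele cannot be told apart from genotype.

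Insulin-degrading enzyme, the product of Ide, is a zinc metallopeptidase of the M16 family that cuts short peptides such as insulin and amyloid beta. Kif11 encodes the mitotic kinesin Eg5, which slides spindle microtubules apart and is made by dividing cells. Fgfbp3 encodes a secreted protein that binds fibroblast growth factors, and Hhex encodes a homeobox repressor used in blood and endoderm development and by B cells. The number of copies of a chromosome 19 segment that holds Ide and Fgfbp3 is known to vary among stocks of C57BL/6J mice. DNA was not measured here, so more copies of a gene and more RNA per copy cannot be told apart, and in these bulk samples a change in the share of cells that make an RNA cannot be told apart from a change per cell.

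Coordinates are on GRCm38 and genes are those of GENCODE. From low to high coordinate on chromosome 19, Fgfbp3 (ENSMUSG00000047632.10) runs from 36917550 to 36919615 on the minus strand and Ide (ENSMUSG00000056999.14 and ENSMUSG00000111624.1) from 37268743 to 37337852 on the minus strand. Kif11 (ENSMUSG00000012443.3 and ENSMUSG00000111220.1) follows from 37376403 to 37421859 and Hhex (ENSMUSG00000024986.11 and ENSMUSG00000111314.1) from 37434810 to 37440731, both on the plus strand. In each pair the identifier given first has an entry on the reference chromosomes in GENCODE M21 and the other has none. Kif11 and Hhex start 39 kb and 97 kb beyond Ide, while Fgfbp3 ends 349 kb before it, with Btaf1, Cpeb3 and March5 in between. The processed pseudogene Rpl10-ps6 lies inside Ide on the same strand, with at most 11.83 expected counts in a library.

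The stretches around the annotated starts of the 3 genes measured above background are shown because the results rest on these genes. They are RefSeq promoter windows on GRCm38.p6, 250 bases before to 50 after the start, printed 5′ to 3′ on the strand of the gene: chr19:37376132-37376431 (plus) for Kif11, chr19:37334495-37334794 (minus) for Ide and chr19:36919550-36919849 (minus) for Fgfbp3. Capitals mark matches on either strand to CCAAT (the CCAAT box, read as ATTGG on the other strand) and to TTTGAA (a form of the cell cycle genes homology region, CHR, read as TTCAAA).
Kif11: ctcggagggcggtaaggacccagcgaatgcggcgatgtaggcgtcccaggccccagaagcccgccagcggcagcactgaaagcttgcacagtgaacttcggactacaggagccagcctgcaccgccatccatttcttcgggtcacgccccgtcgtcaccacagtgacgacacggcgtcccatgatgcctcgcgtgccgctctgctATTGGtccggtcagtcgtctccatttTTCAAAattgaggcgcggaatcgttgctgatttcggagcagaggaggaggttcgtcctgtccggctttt
Ide: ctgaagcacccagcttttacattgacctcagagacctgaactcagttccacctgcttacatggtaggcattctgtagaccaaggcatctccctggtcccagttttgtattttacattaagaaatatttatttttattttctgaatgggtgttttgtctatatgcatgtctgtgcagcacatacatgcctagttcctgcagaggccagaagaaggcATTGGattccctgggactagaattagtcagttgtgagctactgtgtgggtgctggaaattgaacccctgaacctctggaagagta
Fgfbp3: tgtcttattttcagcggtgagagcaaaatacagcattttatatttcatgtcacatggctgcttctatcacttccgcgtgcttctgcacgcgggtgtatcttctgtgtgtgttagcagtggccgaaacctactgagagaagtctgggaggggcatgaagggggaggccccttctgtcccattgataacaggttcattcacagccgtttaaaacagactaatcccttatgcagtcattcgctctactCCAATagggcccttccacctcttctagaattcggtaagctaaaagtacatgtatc
The Kif11 window held a CCAAT box 45 bases and a CHR 19 bases before the start, with 60.7% G and C and 28 CpG. The Ide window, whose start lies inside the GENCODE gene, held a CCAAT box 35 bases before the start, no CHR, 44.0% G and C and 0 CpG. It does not reach the position where the GENCODE gene begins, 37337852, so these features describe this RefSeq start only. In Fgfbp3 a CCAAT box stood 5 bases before the start. Over 32851 windows of 27025 genes, 37.4% held CCAAT, 17.9% TTTGAA and 7.0% both, and the median G and C content was 52.7%. Of 12 mitotic kinesin genes with a window, 8 held CCAAT (66.7%), 10 held TTTGAA (83.3%) and 7 held both (58.3%). A match of these letters describes the window and says nothing about binding.

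Libraries held 22516424 to 34533316 expected counts, so a floor of 3 counts, which covers counting error only, came to between 0.0869 and 0.133 CPM (library-scaled counts, with TMM factors over the 16 libraries for every level given). Aim2, the gene targeted in the knockout, was at 37.8, 36.8, 32.0 and 32.9 CPM in the WT Tn libraries and at 9.21, 6.65, 6.44 and 6.85 CPM in Aim2-/- Tn. The WT Treg libraries held 36.2, 40.8, 43.7 and 40.5 CPM and the Aim2-/- Treg libraries 11.0, 10.1, 8.99 and 7.29 CPM, so no library went against its label. The 6 T cell markers summed to 3620 to 4480 CPM in Tn and 1800 to 1960 CPM in Treg, where all 6 were called lower than in Tn in both genotypes. Foxp3, Il2ra, Ctla4 and Ikzf2 summed to 23.1 to 88.3 CPM in Tn and 1680 to 2180 CPM in Treg. Of these 4, only 3 were called higher with culture in each genotype, and the lowest log2 difference was 0.59 in WT and -0.08 in Aim2-/-. Markers of other cells were measured at low levels in Tn, and none of those tested was called between genotypes. The 4 erythroid markers (4 of 4 matched) summed to 1.22 to 3.79 CPM in WT and 4.51 to 7.33 CPM in Aim2-/-, with no overlap. Of all single genes tested in Tn, 3.00% had no overlap with Aim2-/- higher. The 6 B cell markers (6 of 6 matched), of which Ms4a1 was at 0 throughout, summed to 1.06 to 1.59 CPM in WT and 1.57 to 2.35 CPM in Aim2-/-. These B cell ranges overlapped. The myeloid (4 of 5 matched, 8.34 to 15.2 against 9.0 to 11.7 CPM), CD8 T cell (8.90 to 12.1 against 9.06 to 11.4 CPM) and NK cell sums (1.77 to 6.37 against 1.54 to 7.14 CPM) overlapped too. Their part in the genotype differences in Tn was not tested. Within WT Tn, replicates 1 and 2 were closer to each other, as were 3 and 4 (chi-square of their counts per degree of freedom 13.6 and 11.5), than replicates across that split (73.7 to 94.7), while Aim2-/- Tn did not show this split (42.7 for replicates 1 and 2 and 25.3 for 3 and 4, with 22 to 63.3 over the other pairs). The same split appeared in Aim2-/- Treg (10.4 for replicates 1 and 2, 13.6 for 3 and 4, 21.7 to 49.7 across it). WT Treg did not show it (11.8, 25.5 and 19.4 to 40.7 in the same order). Genotype differences are also given from replicates 1 and 2 and from 3 and 4 alone, although nothing in the labels ties libraries of one number together.

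Ide RNA was higher in Aim2-/- than in WT cells by nearly the same factor in both states, and it rose about as much with culture in both genotypes. In order of replicate number, the WT Tn libraries held 45.2, 49.4, 48.8 and 49.4 CPM of Ide and the Aim2-/- Tn libraries 92.3, 92.0, 93.4 and 91.5 CPM. The cultured WT cells held 177, 177, 193 and 198 CPM and the cultured Aim2-/- cells 345, 357, 374 and 383 CPM. No Aim2-/- library came down to the WT level of its state, and no library of a group reached into the range of another group. Ide was chosen for being higher in Aim2-/- in both states, so this gap between genotypes is a description. Genotypes without overlap and with Aim2-/- higher were found for 3.00% of all genes tested in Tn and 1.35% in Treg. From low to high, the groups stood at 48.2 ± 2.03 CPM (SD, n = 4) in WT Tn, 92.3 ± 0.814 CPM in Aim2-/- Tn, 186 ± 10.8 CPM in WT Treg and 364 ± 16.9 CPM in Aim2-/- Treg, and each neighbouring pair in this order was apart by more than the spread within the groups.

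**Figure D1:**
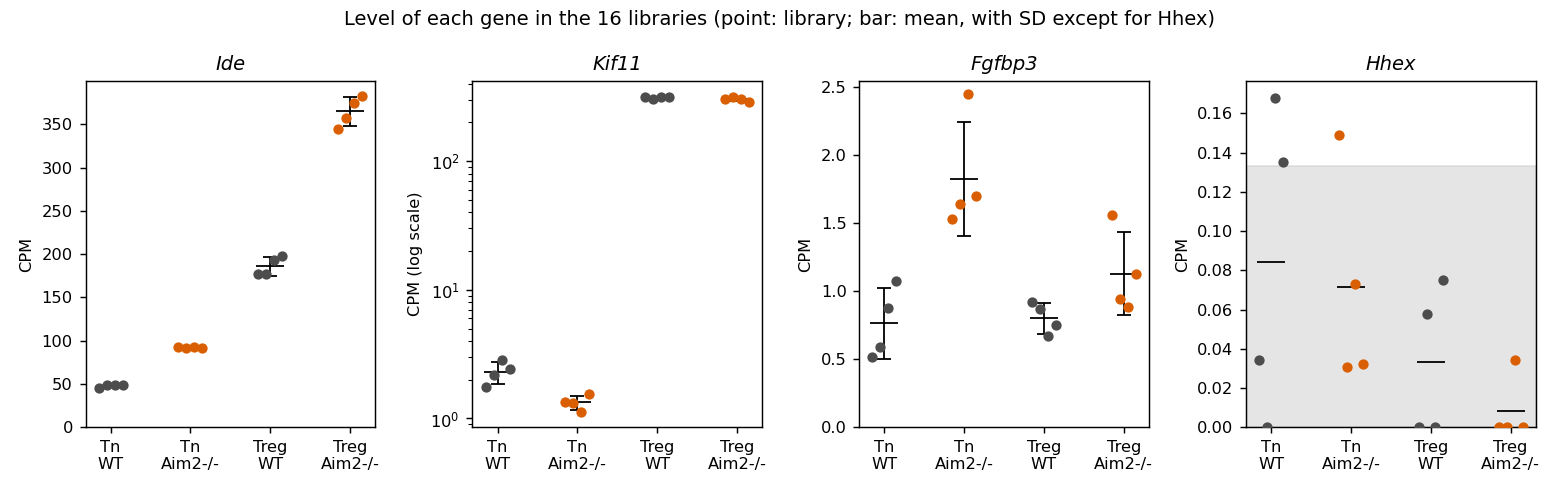
Level of Ide, Kif11, Fgfbp3 and Hhex in the 16 libraries, in CPM (y axis; log scale for Kif11 only) by group (x axis); points are libraries, the horizontal mark is the group mean and the bar its SD, not drawn for Hhex, where grey shading marks levels below the highest floor of 3 counts (0.133 CPM). Ide forms 4 steps with no overlap between 45.2 and 383 CPM, Kif11 separates the states, Fgfbp3 is highest in Aim2-/- Tn, and Hhex stays at or about the floor.

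The ratio of the Ide means was 1.91 in Tn and 1.96 in Treg, and the fitted log2 difference, Aim2-/- minus WT, was 0.96 in Tn (SE 0.07, 95% interval 0.80 to 1.12) and 0.96 in Treg (SE 0.05, interval 0.84 to 1.08). The difference of these differences between the states was 0.02 (SE 0.08, interval -0.16 to 0.19). Ide was chosen on its genotype difference, so these intervals and the fits with fewer libraries that follow are descriptions and no test. Taken from replicates 1 and 2 alone, the genotype difference was 0.99 for Tn and 0.98 for Treg. Replicates 3 and 4 alone gave 0.92 and 0.94. Leaving out 1 library at a time gave 0.91 to 0.97 in Tn and 0.94 to 0.99 in Treg. Behind these values stood 1165 to 1466 counts of Ide per library in WT Tn and 9044 to 10923 in Aim2-/- Treg. For context, edgeR (quasi-likelihood F test, two-sided, adjusted by Benjamini-Hochberg over all genes tested) called 30 of 13370 genes between the genotypes in Tn (0.224%) and 28 of 13151 in Treg (0.213%) at an adjusted p under 0.05. At these shares, the absence of a genotype call in a short list of genes says little about that list.

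With culture, Ide rose by 1.89 on the log2 scale in WT (SE 0.07), from 48.2 to 186 CPM, and by 1.93 in Aim2-/- (SE 0.07), from 92.3 to 364 CPM. The adjusted p of edgeR was 1.1e-08 and 6.6e-10, and every Treg library was above every Tn library of its genotype. Culture moved most of the transcriptome, so that a call by itself sets no gene apart: 76.9% of the genes tested passed in WT (37.7% higher and 39.2% lower) and 79.3% in Aim2-/- (39.1% higher and 40.2% lower). The counts of culture calls in the gene lists below are to be read beside these shares.

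The 7 genes of the M16 family measured here, all with adjusted p under 0.05 for culture in both genotypes, rose together with culture. Ide carries no genotype test, and none of the other 6 was called between genotypes. Pitrm1, a peptidase of the mitochondrial matrix, rose by 1.71 in WT and 1.80 in Aim2-/- on the log2 scale, and Pmpca, the alpha subunit of the mitochondrial processing peptidase, by 1.69 and 1.75. Its partner Pmpcb rose by 0.91 and 1.05, the respiratory core subunits Uqcrc2 by 0.78 and 0.82 and Uqcrc1 by 0.52 and 0.60, and nardilysin (Nrd1) by 0.17 and 0.19. The median over the family, Ide included, was 0.91 in WT and 1.05 in Aim2-/-, where the median over all genes tested was -0.05 and -0.03. Between genotypes the log2 differences of the other 6 lay from -0.09 (Pitrm1) to 0.03 (Nrd1) in Tn and from -0.04 (Pitrm1) to 0.10 (Pmpcb) in Treg, with SE of at most 0.10.

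**Figure D2:**
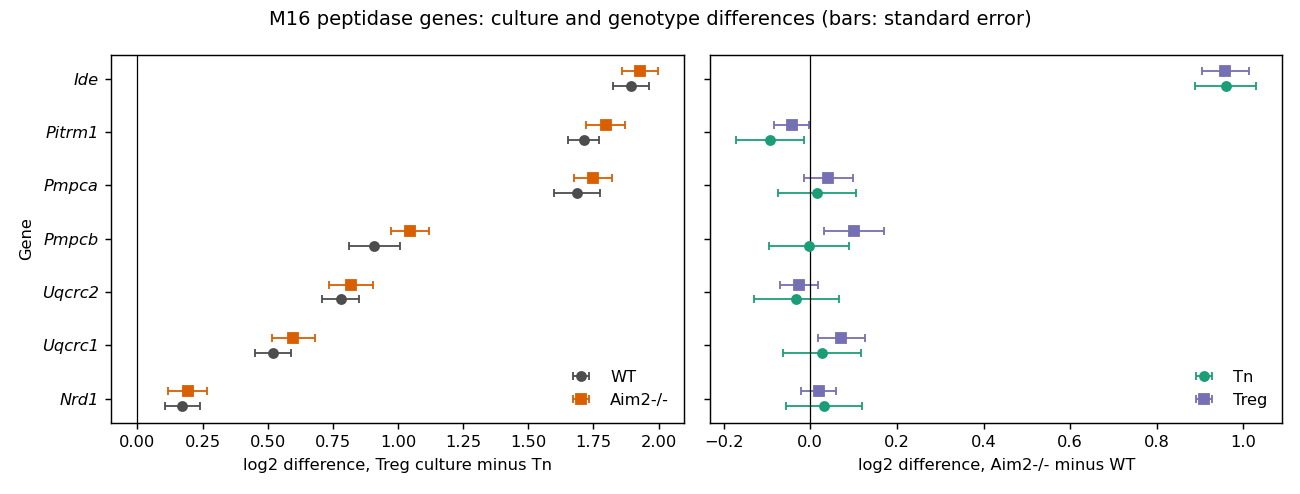
Log2 differences (x axes) of the 7 M16 family genes (y axis), Treg minus Tn on the left for WT (circles) and Aim2-/- (squares), and Aim2-/- minus WT on the right for Tn (circles) and Treg (squares); points are fitted values and bars standard errors. On the right Ide stands at 0.96 in both states while the other 6 lie between -0.09 and 0.10.

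A wider list held 15 enzymes that degrade peptides, of which 12 were tested. After culture 9 were called higher and 3 lower in WT, and 8 higher and 2 lower in Aim2-/-. Such calls took in 76.9% and 79.3% of all genes tested. The largest rise in the list was that of Thop1, a cytosolic oligopeptidase (3.57 and 3.51 on the log2 scale). Prep, which cuts after proline, rose by 1.90 and 2.21. The lysosomal cathepsin Ctsd fell by 1.70 in WT, from 310 to 99.2 CPM, and also fell in Aim2-/-, from 282 to 104 CPM. The endothelin-converting enzyme Ece1 was at -0.60 in WT and -0.45 in Aim2-/-, called in both. Ide carries no genotype test, and none of the other 11 enzymes tested was called between genotypes in either state.

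Kif11 RNA was scarce in Tn and abundant in Treg. The WT Tn libraries held 1.76, 2.17, 2.85 and 2.43 CPM and the Aim2-/- Tn libraries 1.34, 1.33, 1.13 and 1.54 CPM. The WT Treg libraries held 312, 302, 312 and 314 CPM and the Aim2-/- Treg libraries 306, 316, 302 and 288 CPM. All Treg libraries were far above all Tn libraries, the genotypes overlapped in Treg, and in Tn the Aim2-/- libraries lay below the WT libraries. Culture raised Kif11 by 7.02 on the log2 scale in WT (SE 0.14, adjusted p = 5.3e-10) and by 7.76 in Aim2-/- (SE 0.11, adjusted p = 2.7e-12) by edgeR, from 2.30 to 310 CPM and from 1.34 to 303 CPM. The ratio of means was 135 in WT and 226 in Aim2-/-.

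The genotype difference of Kif11, which lies next to Ide, was estimated below 0, where that of Ide was above 0, but it was near 0 in Treg and called in neither state. It was -0.75 on the log2 scale in Tn (SE 0.22, interval -1.24 to -0.27) and did not pass the test over all genes (unadjusted p = 0.006, adjusted p = 0.36 by edgeR). In Treg it was -0.04 (SE 0.04, interval -0.14 to 0.06, adjusted p = 1). Replicates 1 and 2 of Tn alone gave -0.52, and replicates 3 and 4 gave -0.96. Behind the Tn values stood 31 to 72 counts per library. The sum of Mki67 and Top2a, markers of dividing cells, was 12.7 to 21.7 CPM in WT Tn and 10.6 to 15.2 CPM in Aim2-/- Tn, and 2480 to 2810 and 2240 to 2540 CPM in Treg, and its part in the Kif11 values was not tested. Aim2-/- libraries without overlap below WT were found for 3.88% of all genes tested in Tn.

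The rise of Kif11 with culture was 0.72 larger on the log2 scale in Aim2-/- (SE 0.16, interval 0.38 to 1.06), which edgeR did not call as an interaction (unadjusted p = 0.00031, adjusted p = 0.45). That test called 4 of 14595 genes (0.0274%), and 518 had an unadjusted p under 0.05. DESeq2 gave 0.72 with an adjusted p of 0.042, and over all alternatives the adjusted p ran from 0.042 to 1. Averaged over both states, a contrast added after the values were seen, the genotype difference of Kif11 was -0.40 (SE 0.08, adjusted p = 0.024 by edgeR), in a contrast that called 0.452% of genes. The call was lost in 8 of 16 fits that left out 1 library: WT Tn replicate 3 or 4, Aim2-/- Tn replicate 1, 2 or 3, WT Treg replicate 1 or 3, or Aim2-/- Treg replicate 4. Adjusted p over these 16 edgeR fits ran from 0.0046 to 0.11, and limma-voom did not call it either (adjusted p = 0.14).

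Kif11 shared its rise with the other mitotic kinesins. All 13 motors listed rose with culture in both genotypes, with a median log2 difference of 6.35 in WT and 6.95 in Aim2-/-. They ran from Kifc1, a minus-end motor that focuses spindle poles (2.29 and 2.11), to the chromokinesin Kif4 (8.03 and 8.39), with Kif15, which can stand in for Eg5, at 7.34 and 7.49 and the kinetochore motor Cenpe at 6.35 and 6.95. Kif20b, another kinesin gene of chromosome 19, rose by 2.85 and 2.97. Between genotypes 0 of 11 tested in Tn and 0 of 13 tested in Treg were called, 9 of the 11 with a negative estimate in Tn (median -0.24) and 12 of the 13 in Treg (median -0.06), where the medians over all genes were 0.01 and 0. Next to Kif11, the lowest estimates in Tn were those of Cenpe (-0.61, adjusted p = 0.53) and Kif23, which acts at the midzone in cytokinesis (-0.50, adjusted p = 0.40), both by edgeR.

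**Figure D3:**
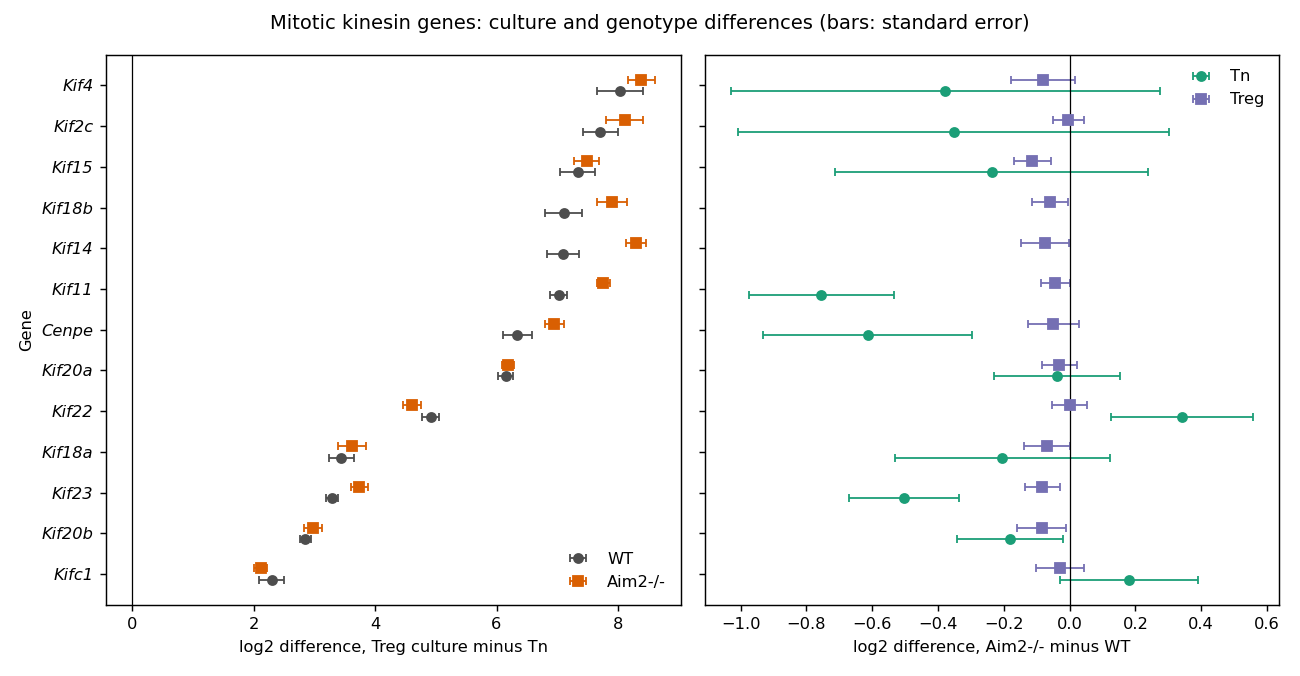
Log2 differences (x axes) of 13 mitotic kinesin genes (y axis), Treg minus Tn on the left for WT (circles) and Aim2-/- (squares), and Aim2-/- minus WT on the right for Tn (circles; 11 genes tested) and Treg (squares); points are fitted values and bars standard errors. On the left all 13 lie above 2, and on the right Kif11 has the lowest estimate in Tn (-0.75) and lies near 0 in Treg.

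Of 12 partners of Eg5 in spindle assembly, 10 were called higher and 2 lower with culture in WT, and 10 higher and 1 lower in Aim2-/-. Calls with culture took in 76.9% and 79.3% of all genes tested. Cdk1, the mitotic kinase that phosphorylates Eg5, rose by 8.51 in WT and 8.72 in Aim2-/- on the log2 scale, and Tpx2, which binds the motor at the spindle, by 8.27 and 8.23. Numa1, which gathers microtubule minus ends and is also a nuclear protein of resting cells, fell (-0.84 and -0.75). The kinase Nek9 fell in WT (-0.26) and was at -0.21 in Aim2-/- (adjusted p = 0.068 by edgeR). None of the 12 was called between genotypes in either state.

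Fgfbp3 was measured by few counts, 15 to 67 per library, and its estimates were higher in Aim2-/- in both states. The WT Tn libraries held 0.517, 0.591, 0.880 and 1.08 CPM and the Aim2-/- Tn libraries 1.53, 1.64, 2.45 and 1.70 CPM. For Treg the values were 0.924, 0.869, 0.670 and 0.752 CPM (WT) against 1.56, 0.946, 0.889 and 1.13 CPM (Aim2-/-). The genotypes did not overlap in Tn, as was the case with Aim2-/- higher for 3.00% of all genes tested, and they overlapped in Treg.

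The log2 difference of Fgfbp3 between genotypes was 1.27 in Tn (SE 0.30, interval 0.62 to 1.93), which edgeR did not call (unadjusted p = 0.0014, adjusted p = 0.24). In Treg it was 0.48 (SE 0.25, interval -0.07 to 1.03, adjusted p = 1). The ratio of means was 2.39 in Tn and 1.41 in Treg, and both intervals took in the value of Ide, 0.96. Replicates 1 and 2 of Tn alone gave 1.54 and replicates 3 and 4 gave 1.08, and the same pairs of Treg gave 0.48 and 0.49. Leaving out 1 library gave 0.28 to 0.58 in Treg, the lowest without Aim2-/- replicate 1. DESeq2, which called 125 genes in Tn, called Fgfbp3 among them (1.26, adjusted p = 0.028). The difference between the states was -0.77 (SE 0.39, adjusted p = 1 by edgeR), and the average over states was 0.87 (SE 0.20, adjusted p = 0.072).

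Culture did not move Fgfbp3 in WT by a detectable amount, with a log2 difference of 0.01 (SE 0.29, interval -0.64 to 0.67, adjusted p = 0.97 by edgeR). Replicates 1 and 2 of WT alone gave 0.69 and replicates 3 and 4 gave -0.54. In Aim2-/- it fell by 0.75 (SE 0.27, adjusted p = 0.024 by edgeR), from 1.83 ± 0.42 to 1.13 ± 0.306 CPM (SD, n = 4), with overlap between the states. That call was lost without Aim2-/- Tn replicate 3 (adjusted p = 0.052) and without Aim2-/- Treg replicate 2, 3 or 4 (adjusted p = 0.077, 0.081 and 0.053), all by edgeR. It was also lost with no filter on low counts (adjusted p = 0.052 by edgeR) and in replicates 1 and 2 alone (-0.41, adjusted p = 0.29 by edgeR), where replicates 3 and 4 gave -1.12. The genes of the fibroblast growth factor pathway showed no genotype call either, 0 of 10 tested in Tn and 0 of 8 in Treg. With culture 3 were called higher and 6 lower in WT, and 3 higher and 7 lower in Aim2-/-. Such calls took in 76.9% and 79.3% of all genes tested. Fgf2, a growth factor ligand, rose by 3.04 and 2.73 on the log2 scale and Spred1, an inhibitor of the pathway, by 2.11 and 2.31. Mean levels of the receptor Fgfr1 went from 0.862 to 0.153 CPM in WT and from 0.558 to 0.0738 CPM in Aim2-/-, the latter below the floor.

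Hhex was at or about the floor in every library and passed no filter. Its counts, in order of replicate number, were 1, 0, 4 and 4 in WT Tn, 4, 1, 2 and 1 in Aim2-/- Tn, 0, 2, 0 and 2 in WT Treg, and 0, 0, 1 and 0 in Aim2-/- Treg. The 4 groups overlapped, and a genotype or culture difference in Hhex was not detectable at this depth. Of the factors that work with HHEX, 6 were tested, with no call between genotypes. With culture Eif4e, the cap-binding protein that HHEX can bind, rose by 1.76 in WT and 1.96 in Aim2-/- on the log2 scale and the nuclear body protein Pml by 0.53 and 0.79. The co-repressors of the Groucho family Tle4 (-2.13 in WT and -1.90 in Aim2-/-), Tle2 (-1.15 and -1.63) and Tle3 (-1.01 and -1.02) fell.

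Levels of the members are compared with each other only per length of exon. On the scale of CPM per kb, Ide was at 6.42 in WT Tn, 12.3 in Aim2-/- Tn, 24.8 in WT Treg and 48.6 in Aim2-/- Treg. Kif11 was at 0.308, 0.179, 41.5 and 40.6, and Fgfbp3 at 0.432, 1.03, 0.454 and 0.639 in the same order. In Tn the order was thus Ide above Fgfbp3 above Kif11, and in Treg Fgfbp3 was the lowest of the 3. Kif11 stood above Ide in WT Treg and below it in Aim2-/- Treg.

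By their estimates, the genes around Ide did not follow its genotype difference as a block. Within 1 Mb of Ide lie 36 other genes of the tables, of which 13 were tested in Tn and 14 in Treg. Of these, edgeR called 0 in either state (smallest adjusted p 0.24 in Tn and 0.85 in Treg). Over all genes tested it called 0.224% in Tn and 0.213% in Treg, so 0 calls among so few genes say little by themselves. Unadjusted p was under 0.05 for Fgfbp3 (0.0014), Fra10ac1 (0.0025) and Kif11 (0.006) in Tn and for Btaf1 (0.0043) in Treg. Ide was chosen on its genotype difference, so setting the neighbours against its interval is a description and not a test. The 95% interval of the genotype difference lay wholly below that of Ide for 9 of the 13 in Tn. The others were Fgfbp3, Cep55, Hectd2os and AC117769.3. In Treg it lay wholly below for 11 of the 14, the others being Fgfbp3, Ffar4 and Rpl10-ps6. Among the neighbours tested in both states, Fgfbp3 was the one whose interval reached that of Ide in both, while Hectd2os and AC117769.3 were tested in Tn only and Ffar4 and Rpl10-ps6 in Treg only. From 5 Mb before to 5 Mb after Ide, leaving out the 4 members, 0 of 62 genes tested in Tn and 0 of 65 in Treg were called. At the shares over all genes given above, these counts also say little by themselves.

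Nearest to Ide on the side of Fgfbp3, March5, a ubiquitin ligase of the mitochondrial outer membrane, was at 38.0 to 53.1 CPM in WT Tn and 40.4 to 43.3 CPM in Aim2-/- Tn, and at 44.3 to 52.4 and 46.9 to 57.3 CPM in Treg. Its log2 difference between genotypes was -0.09 in Tn (SE 0.12) and 0.10 in Treg (SE 0.08). Cpeb3, an RNA-binding regulator of translation whose start overlaps that of March5 on the other strand, was low, with -0.24 (SE 0.31) and -0.34 (SE 0.47). Btaf1, an ATPase that removes TBP from DNA, lies between Fgfbp3 and Cpeb3 and was at -0.11 (SE 0.09) in Tn and 0.26 (SE 0.07, adjusted p = 0.85 by edgeR) in Treg. Its Treg libraries did not overlap, at 112 to 137 CPM in WT and 139 to 160 CPM in Aim2-/-, as held with Aim2-/- higher for 1.35% and with Aim2-/- lower for 0.966% of all genes tested in Treg. Tnks2, a tankyrase beyond Fgfbp3, was at -0.15 (SE 0.10) and -0.14 (SE 0.11).

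Beyond Kif11 and Hhex, Exoc6, a subunit of the exocyst that tethers vesicles, had a genotype difference of 0.22 in Tn (SE 0.12) and -0.05 in Treg (SE 0.15). Cep55, which recruits the machinery that severs dividing cells, was at 0.21 (SE 0.44) and 0.00 (SE 0.10), and it rose with culture by 6.99 in WT and 6.83 in Aim2-/- on the log2 scale. Fra10ac1 went from 11.3 to 12.9 CPM in WT Tn to 13.6 to 20.2 CPM in Aim2-/- Tn, a difference of 0.51 (SE 0.13, adjusted p = 0.28 by edgeR), and was at 0.11 (SE 0.09) in Treg. In Treg alone, the fatty acid receptor Ffar4 was at 0.47 (SE 0.22) and the membrane protein Myof at -0.20 (SE 0.24).

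**Figure D4:**
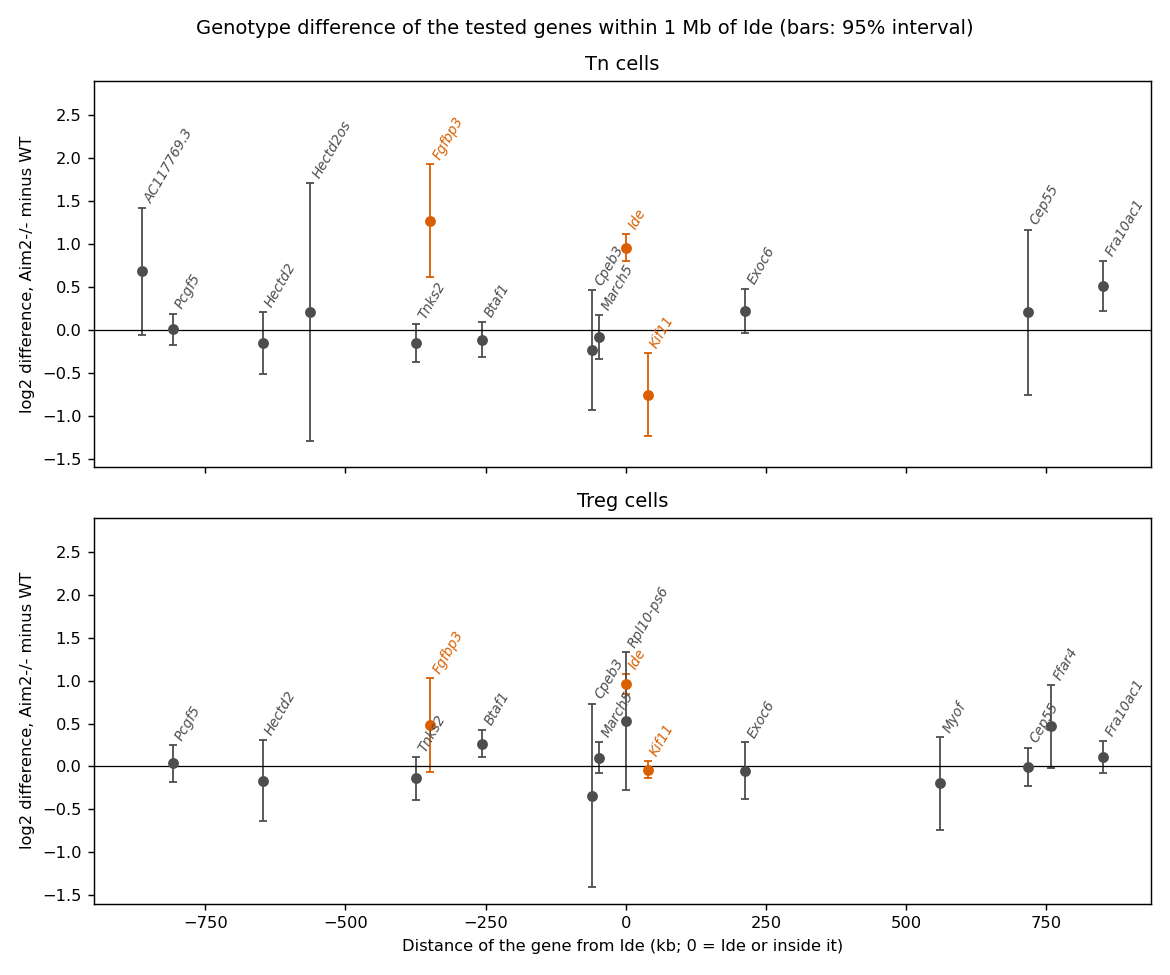
Genotype difference (y axis, log2, Aim2-/- minus WT) of the tested genes within 1 Mb of Ide against their distance from Ide in kb (x axis), in Tn (upper panel) and Treg (lower panel); points are fitted values, bars 95% intervals, and Ide, Kif11 and Fgfbp3 are in orange. Ide stands at 0.96 in both panels, Fgfbp3 at 1.27 and 0.48, and Kif11, 39 kb from Ide, at -0.75 and -0.04.

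A list of 46 symbols from this stretch of chromosome 19 had 45 matched. Culture raised 17 and lowered 7 of 32 tested in WT, and raised 18 and lowered 8 of 33 in Aim2-/-, with medians of 0.50 and 0.52. Over all genes tested, 76.9% were called with culture in WT and 79.3% in Aim2-/-, so the number of calls does not set this stretch apart. Myof went from 0.0172 to 47.0 CPM in WT and from 0.0344 to 41.4 CPM in Aim2-/-, and Ffar4 from 0 to 6.88 and from 0 to 9.59 CPM. The largest falls in WT were those of the interferon-induced gene Ifit1 (log2 difference -2.21) and of Lipa, a lysosomal lipase (-1.75).

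As a description of pattern, Pearson's r of log2 CPM was taken between each of the 3 measured members and each of 14595 genes over the 16 libraries, which share the split between Tn and Treg. Nearest to Ide were Bik, a BH3-only protein that promotes cell death (0.972), Gm3200 (0.967), the mitochondrial ribosomal genes Mrpl57 (0.961) and Mrps28 (0.960), and fumarate hydratase, Fh1 (0.955). None of these 5 lies on chromosome 19, and Fh1 lies on chromosome 1, as Aim2 does. Nearest to Kif11 were the condensin subunit Ncaph, Nsd2, Rfwd3, the cytokinesis gene Anln and the kinase Cit, each with r of at least 0.999. For Fgfbp3 the values were lower, from 0.858 for the mitochondrial deacylase Sirt5 and 0.853 for Ifi203-ps to 0.838 for Dcaf4, 0.834 for 5830416I19Rik and 0.824 for Ifi204, and Ifi203-ps and Ifi204 lie on chromosome 1, as Aim2 does.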

How the data were processed

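The authors made stranded mRNA libraries, mapped single-end reads to GRCm38 with STAR, quantified genes with RSEM and GENCODE m15, and deposited 1 table per library (16 in all) of expected counts per gene, neither normalized nor filtered. Tool versions and the strand setting are not given in the sources used here. Groups and replicate numbers came from the deposited titles.

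Expected counts were rounded after 128 pairs of rows with the same symbol were added (108 pairs equal in every library within 0.02 counts), which left 52962 genes, and 98.7% of rows had an entry in GENCODE M21. A gene was tested when 4 or more libraries of a comparison held 10 or more counts, two-sided, with edgeR 4.0.16 (quasi-likelihood, robust, TMM), Benjamini-Hochberg adjustment over all genes tested and a threshold of 0.05. SE is the log2 difference over the square root of F. Alternatives were DESeq2 1.42.0, limma-voom 3.58.1, RLE scaling, other filters, 1 identifier of each pair, all 16 libraries in one fit, a replicate block and each library left out. The fits within replicates 1 and 2 and within 3 and 4, the average over states and the pattern of Fgfbp3 were added after seeing the data. Code was tested on simulated data.

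Members and gene lists were chosen with earlier results of these data known. The genes named were the members, Aim2, the 5 nearest tested genes on each side of Ide, the members of each list with the largest changes, and the 5 genes most like a member. Intervals and floors cover counting error or spread between libraries only.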

Additional observations from a re-analysis of the deposited data

Results flagged for a closer look

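Among 16 checks of a member in a group, Dixon's test at 95% set apart 2 libraries, where about 1 in 20 groups is set apart by chance. The lowest Ide level in WT Tn, 45.2 CPM in replicate 1, lay apart from the other 3 libraries by 0.851 of the range of the group. Without that library the genotype difference of Ide in Tn was 0.91, the lowest value on leaving out 1 library. In Aim2-/- Treg, Hhex was at 0.0342 CPM in 1 library, which is 1 count, and at 0 in the other 3, so this flag rests on a count below the floor.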

How the results depend on the processing

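Of 274 tested values of the members under alternatives, 248 kept their direction and side of the threshold. The genotype values of Ide carry no test, and its difference between the states, near 0, had the opposite sign in 7 of 24 alternatives. Counts of called genes moved most. In Tn (30) they were 125 by DESeq2, 48 with no filter, 17 with 10 counts in every library, 57 with all 16 libraries in one fit and 14 to 27 without 1 library. In Treg (28) they were 51, 15 with the filter in every library, and 9 to 16 without 1 library. The interaction (4) had 14 by DESeq2, 2 by limma-voom, 0 with the filter in every library and 2 to 6 without 1 library. The cause was not tested.

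For Fgfbp3, DESeq2 called the genotype difference in Tn (1.26) and the average over states (0.88), which ran from 0.77 to 0.99 without 1 library and was called without WT Tn replicate 4. Its fall with culture in Aim2-/- was not called with no filter (-0.71) or within replicates 1 and 2 (-0.41), and ran from -0.90 to -0.60 without 1 library. Its difference with culture in WT, near 0, changed sign within replicates 3 and 4 (-0.54) and ran from -0.16 to 0.22 without 1 library. For Kif11, the Tn difference was called with all 16 libraries in one fit (-0.77, adjusted p = 0.01 by edgeR) and the interaction by DESeq2 (0.72). In Treg the difference, near 0, was 0.012 within replicates 1 and 2. Its average over states was not called by limma-voom (-0.39), and ran from -0.45 to -0.33 without 1 library.

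Same-numbered libraries of the genotypes correlated at 0.03 to 0.35 in Tn and -0.02 to 0.49 in Treg. The mean was 0.16 in Tn, with 2 of 4 over 0.1, and 0.3 in Treg, with 3 of 4 over 0.1. As not every pair was over 0.1, the numbers were not taken to pair the samples, but these values do not exclude a pairing. The fits from replicates 1 and 2 or 3 and 4 alone only leave libraries out. With the replicate block the average over states of Kif11 was -0.40 and no longer called (adjusted p = 0.058 by edgeR), and 1 neighbour of Ide was called in Treg, Btaf1 (0.27, adjusted p = 0.039 by edgeR). Low counts limit what can be said of Hhex and Fgfbp3.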
